A study of Mus musculus with 16 samples.

Results

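The comparison covered trimethylation of histone H3 at lysine 27 (H3K27me3) in wild type mouse embryonic stem cells (ES) and in the neural progenitor cells (NPC) derived from them. Its members were all peaks of these ChIP-seq lists, 11808 in ES and 11371 in NPC, which together made up 23179 of the 86279 peaks in the 10 peak lists analysed from the series. A peak was called kept when a peak of the other stage overlapped it by at least 1 bp, an ES peak without such a partner was called lost, and an NPC peak without one was called gained. A gene was called marked in a stage when the centre of a peak lay within 2500 bp of one of its protein-coding start sites in the GENCODE M1 annotation of mm9, and this peak was called a promoter peak. The centres nearest to the limit lay at 2499 bp and 2501 bp. Of 22232 annotated protein-coding gene names, 1351 (6.08%) were marked in NPC alone, 847 (3.81%) in ES alone and 2129 (9.58%) in both stages.

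The study followed PCGF5, a subunit of a Polycomb repressive complex 1 (PRC1), through neural differentiation, with 1 library in each group. Wild type ES were mouse 46C cells, a line with a Sox1-GFP reporter, kept on inactivated mouse embryo fibroblasts in medium with serum, LIF and the 2i inhibitors CHIR99021 and PD0325901. Wild type NPC were the same line on day 6 of differentiation in suspension in medium with knockout serum replacement. Lists of H2AK119ub1 in both stages, of Flag-tagged PCGF5 in both stages, and of H3K27me3 and H2AK119ub1 in cells labelled shPCGF5 and PCGF5-depleted, served as readouts that the classes did not use. No group had a replicate, so no spread between cultures could be given and no difference was tested. Intervals in brackets are 95% Wilson intervals, which cover counting error over peaks or genes only. The ES culture contained fibroblasts as a feeder layer, NPC were a mixed population, and a smaller share of marked cells and less mark per cell cannot be told apart in either library.

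H3K27me3 is written by the EZH1 and EZH2 enzymes of Polycomb repressive complex 2 (PRC2), and it accompanies silencing of developmental regulators. In ES it lies mainly at CpG islands of genes that are off but can be used later, often together with the active mark H3K4me3. PRC1 places the H2AK119ub1 mark and can be recruited to H3K27me3 through its CBX subunits, while PRC1 variants with other PCGF subunits reach chromatin without it.

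The sequences at the centre of 11 promoter peaks are examples of kept, gained and lost regions and were not drawn to represent the CpG content of each class. They are 150 bp long, read from the plus strand of mm9, and printed in lower case with each CpG dinucleotide in capitals, since PRC2 in ES is known to favour CpG-dense DNA. Pax6, Lhx5 and Hoxc6 stand for developmental genes kept in NPC, Tbx3, Klf4, Utf1 and Otx2 for regulators of ES identity and early fate that gained a peak, and Zmiz1, Fst, Flg and Krt14 for genes that lost one.
Pax6, kept NPC peak, chr2:105508862-105509011, intergenic: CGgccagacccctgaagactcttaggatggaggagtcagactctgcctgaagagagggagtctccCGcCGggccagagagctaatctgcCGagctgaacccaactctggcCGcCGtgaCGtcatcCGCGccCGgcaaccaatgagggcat
Lhx5, kept NPC peak, chr5:120880929-120881078, intergenic: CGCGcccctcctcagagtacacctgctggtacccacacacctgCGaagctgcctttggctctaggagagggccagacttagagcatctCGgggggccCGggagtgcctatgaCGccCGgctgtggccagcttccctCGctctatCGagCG
Hoxc6, kept NPC peak, chr15:102829458-102829607, intron of Hoxc6: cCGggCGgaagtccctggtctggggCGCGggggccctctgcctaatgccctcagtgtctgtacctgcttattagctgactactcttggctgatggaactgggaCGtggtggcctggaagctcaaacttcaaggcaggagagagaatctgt
Tbx3, gained NPC peak, chr5:120122244-120122393, exon of Tbx3: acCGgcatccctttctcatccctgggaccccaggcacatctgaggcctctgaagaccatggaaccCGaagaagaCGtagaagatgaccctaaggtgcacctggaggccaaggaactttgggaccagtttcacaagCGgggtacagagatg
Klf4, gained NPC peak, chr4:55544033-55544182, intron of Klf4: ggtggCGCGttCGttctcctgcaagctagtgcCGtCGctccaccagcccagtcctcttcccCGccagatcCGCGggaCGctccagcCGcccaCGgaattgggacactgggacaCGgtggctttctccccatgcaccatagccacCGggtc
Utf1, gained NPC peak, chr7:147130107-147130256, exon of Utf1: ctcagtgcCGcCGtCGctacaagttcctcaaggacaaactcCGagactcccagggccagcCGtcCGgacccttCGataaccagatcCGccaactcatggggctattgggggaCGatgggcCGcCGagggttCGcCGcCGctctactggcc
Otx2, gained NPC peak, chr14:49285771-49285920, intron of Otx2: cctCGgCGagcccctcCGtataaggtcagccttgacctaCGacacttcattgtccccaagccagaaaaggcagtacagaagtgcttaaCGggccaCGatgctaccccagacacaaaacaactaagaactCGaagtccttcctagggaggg
Zmiz1, lost ES peak, chr14:26279246-26279395, intron of Zmiz1: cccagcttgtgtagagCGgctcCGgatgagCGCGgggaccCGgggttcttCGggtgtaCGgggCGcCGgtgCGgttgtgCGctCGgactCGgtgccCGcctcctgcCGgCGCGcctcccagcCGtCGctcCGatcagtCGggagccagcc
Fst, lost ES peak, chr13:115247427-115247576, intron of Fst: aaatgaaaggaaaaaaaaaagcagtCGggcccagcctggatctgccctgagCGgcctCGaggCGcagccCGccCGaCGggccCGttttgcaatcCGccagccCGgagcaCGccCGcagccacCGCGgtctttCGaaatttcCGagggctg
Flg, lost ES peak, chr3:93092110-93092259, exon of Flg: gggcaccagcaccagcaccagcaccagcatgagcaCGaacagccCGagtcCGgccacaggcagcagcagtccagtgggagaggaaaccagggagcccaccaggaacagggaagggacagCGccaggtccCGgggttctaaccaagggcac
Krt14, lost ES peak, chr11:100068190-100068339, exon of Krt14: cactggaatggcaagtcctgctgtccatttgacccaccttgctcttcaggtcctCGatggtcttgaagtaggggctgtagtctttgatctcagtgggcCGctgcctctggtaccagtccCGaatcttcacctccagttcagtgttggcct

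The windows at Zmiz1, Fst, Utf1 and Klf4 held 21, 16, 14 and 13 CpG, and those at Pax6 and Lhx5 held 10 each. The windows at Tbx3 and Krt14, both inside exons, held 4 and 3. Lost regions were thus found both in CpG-dense promoters such as that of Zmiz1, which encodes a PIAS-like coregulator, and in the CpG-poor body of Krt14, a basal keratin. Over all promoter peaks the order of the classes differed from these examples. The median number of CpG in 500 bp was 29 at kept NPC, 12 at gained and 18 at lost promoter peaks.

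The ES and NPC lists were of similar length but the NPC peaks were broader. ES peaks covered 4.31 Mb with a median width of 266 bp, and NPC peaks covered 9.67 Mb with a median of 453 bp. The ES list had 53 peaks of 2 kb or more and 5 of 5 kb or more, against 1071 and 120 in NPC. Peak widths and numbers depend on sequencing depth, which the peak lists do not give, and 1040 ES peaks (8.81%) had a q-value above 0.05 while no NPC peak did. The study's spike-in scaling does not enter the lists, so a wider peak does not measure more mark. By Western blot the paper reports that total H3K27me3 fell over the course of neural differentiation.

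The check of the cell labels against markers was limited to what H3K27me3 can show. Of 12 ES markers, 1 was marked in ES and 7 in NPC. Of 11 neural precursor markers found in the annotation, which has no gene named Sox1, 6 were marked in ES and 8 in NPC, of 7 mesoderm markers 6 in each, and of 6 endoderm markers 6 and 5. Of all genes, 13.4% were marked in ES and 15.7% in NPC. The ES markers therefore differed between the lists and the neural markers did not show a lower number in NPC. The mark does not measure expression, and no expression data were used here.

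Most peaks of each stage were without a partner in the other. Of the ES peaks, 5081 (43.0%, 42.1 to 43.9) were kept and 6727 (57.0%) were lost. Of the NPC peaks, 3688 (32.4%, 31.6 to 33.3) were kept and 7683 (67.6%) were gained. The gained class included 9 peaks on the mitochondrial genome, where the ES list had 0. Kept peaks were the wide ones, with a median of 354 bp in ES against 229 bp for lost peaks, and 1058 bp in NPC against 355 bp for gained peaks. A wide peak also meets another more easily by 1 bp. Among ES peaks under 300 bp, 29.3% were kept, and among those of 1000 bp or more, 87.7% were. In NPC the same bands gave 12.6% and 68.3%.

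The share kept also changed with the score of the peak within its list. In NPC it was 17.4% in the lowest-scoring 10% and 77.1% (74.5 to 79.4) in the highest. In ES it went from 28.4% in the lowest-scoring 10% to 57.0% (54.1 to 59.8) in the ninth step of 10% and was 47.3% (44.5 to 50.2) in the highest. The highest-scoring ES peaks were therefore kept less often than those of the step below them.

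**Figure D1:**
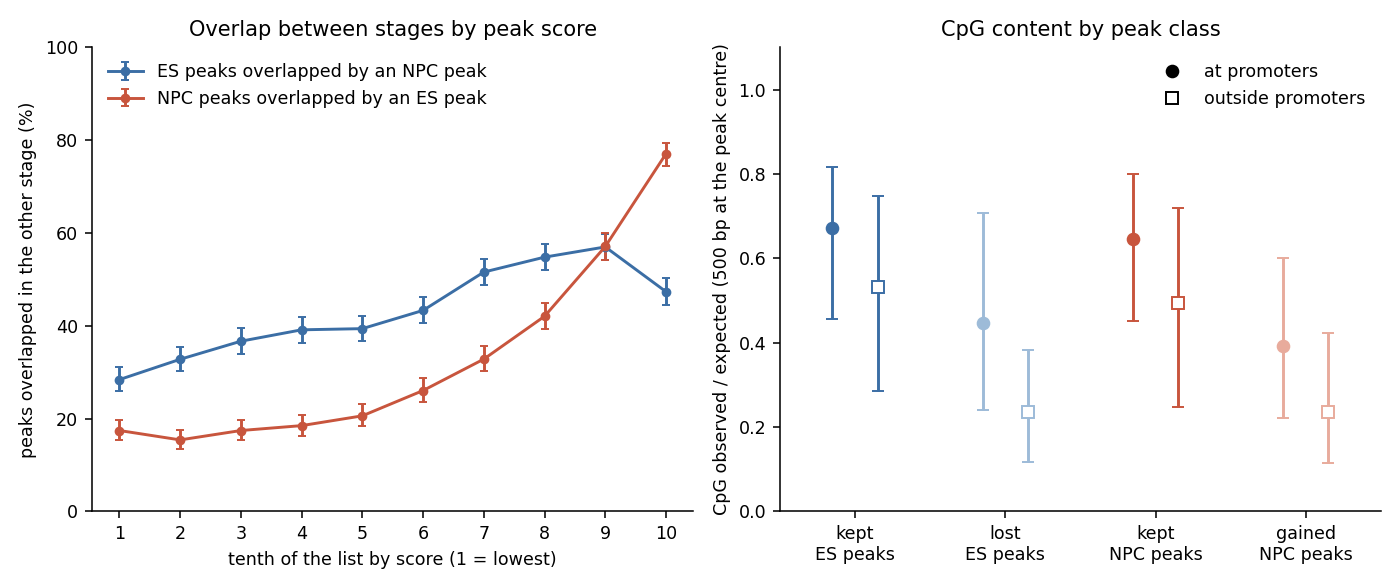
Left, share of ES peaks (blue) and NPC peaks (red) overlapped by a peak of the other stage, in percent, in steps of 10% of each list ranked by score, with 95% Wilson intervals. The NPC share goes from 17.4% to 77.1%, and the ES share is highest at 57.0% in the ninth step. Right, median (points) and quartiles (bars) of the observed over expected CpG ratio in 500 bp at the peak centre, by class and position, where kept peaks lie above lost and gained ones at promoters and outside them.

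Kept peaks lay at promoters and in CpG-rich sequence more often than lost and gained peaks. The share of promoter peaks was 66.3% of kept ES peaks (64.95 to 67.55), 27.2% of lost ES peaks (26.1 to 28.2), 66.4% of kept NPC peaks and 49.4% of gained NPC peaks (48.2 to 50.5). Lost peaks had a median distance of 12.4 kb to the nearest start site, against 1.12 kb for kept ES peaks and 2.58 kb for gained NPC peaks. The lost class therefore held more introns (27.6%) and intergenic sites (36.1%) than the kept ES peaks (9.39% and 17.3%).

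The median ratio of observed to expected CpG in 500 bp was 0.63 at kept ES peaks and 0.60 at kept NPC peaks. It was 0.27 at lost and 0.31 at gained peaks. Windows with a GC content of at least 50% and a ratio of at least 0.6, called CpG-rich here, made up 53.0% of kept ES, 14.1% of lost, 49.7% of kept NPC and 15.9% of gained peaks. The difference was also present within promoters, where 59.3% of kept ES peaks (57.7 to 61.0), 34.2% of lost peaks (32.0 to 36.4), 55.3% of kept NPC peaks (53.4 to 57.3) and 22.4% of gained peaks (21.1 to 23.7) were CpG-rich. Of the start sites themselves, 62.1% were CpG-rich in genes marked in NPC alone, 67.4% in genes marked in both stages, 46.8% in ES alone and 45.0% in neither. The centres of gained promoter peaks were therefore CpG-rich less often than the start sites of the genes marked in NPC alone.

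Many gained peaks lay near regions that were already marked in ES, although no expected share was computed. Of the 7683 gained peaks, 3979 (51.8%, 50.7 to 52.9) lay within 10 kb of an ES peak, and 23.0% within 1 kb. Of the lost peaks, 28.5% (27.4 to 29.6) lay within 10 kb of an NPC peak. The median gap to the other list was 8.27 kb for gained and 49.6 kb for lost peaks. Lost peaks thus lay farther from NPC peaks than gained peaks from ES peaks, and distances within a list were not measured. The wider NPC list offers more bases to lie near.

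Where the mark was kept, the NPC peaks were wider, as they were over the whole lists, which covered 4.31 Mb in ES and 9.67 Mb in NPC. Joining overlapping ES and NPC peaks gave 3530 kept regions, which ES peaks covered with 2.44 Mb and NPC peaks with 5.51 Mb. NPC peaks were wider by any amount in 2979 regions (84.4%, 83.2 to 85.6). They were at least 2 times as long in 1776 (50.3%, 48.7 to 52.0), called widened, and at most 1/2 as long in 102 (2.89%), called narrowed. The regions next to the limit had ratios of 1.998 and 2.002. The median ratio was 2.02, and 1.92 in the 2470 regions with 1 peak on each side.

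In 907 kept regions (25.7%) a single NPC peak spanned 2 or more ES peaks. The most ES peaks under 1 NPC peak, 13, were at Foxf1a, a forkhead factor of lung and gut mesenchyme, where 5044 bp in ES became 15245 bp in NPC. At Lhx5, a LIM homeobox factor of the forebrain, 10 ES peaks with 3117 bp lay under an NPC peak of 10652 bp, chr5:120875679-120886330. Uncx, a homeobox gene of somites, had 8 ES peaks with 4915 bp under 11675 bp, and Evx1, at the end of the HoxA cluster, had 8 with 2178 bp under 2 NPC peaks with 11368 bp. Gaps between ES peaks at these genes were filled in NPC. The widest kept region, chr8:126128573-126148486, overlapped the model gene Gm20388 and had almost the same length in both stages, 19332 bp in 4 ES peaks and 19914 bp in 1 NPC peak. The 6 widest kept ES peaks all overlapped Gm20388, 2 of them inside this region and 4 before it, 25313 to 58973 bp from the nearest protein-coding start site.

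At the start sites of the 2129 genes marked in both stages, the ES peaks were narrow and placed just inside the gene, and the NPC peaks spread to both sides. The share of these genes with a peak over the start site was 30.5% in ES and 51.0% in NPC. At 1 kb inside the gene it was 23.7% and 57.7%, and at 1 kb upstream 7.89% and 29.9%. At 5 kb inside it was still 9.44% in NPC against 3.33% in ES. Genes marked in NPC alone had the same shape, with 25.2% at the start site, 32.0% at 1 kb inside and 15.0% at 1 kb upstream. Genes marked in ES alone reached 19.1% at the start site and 11.1% at 1 kb inside.

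**Figure D2:**
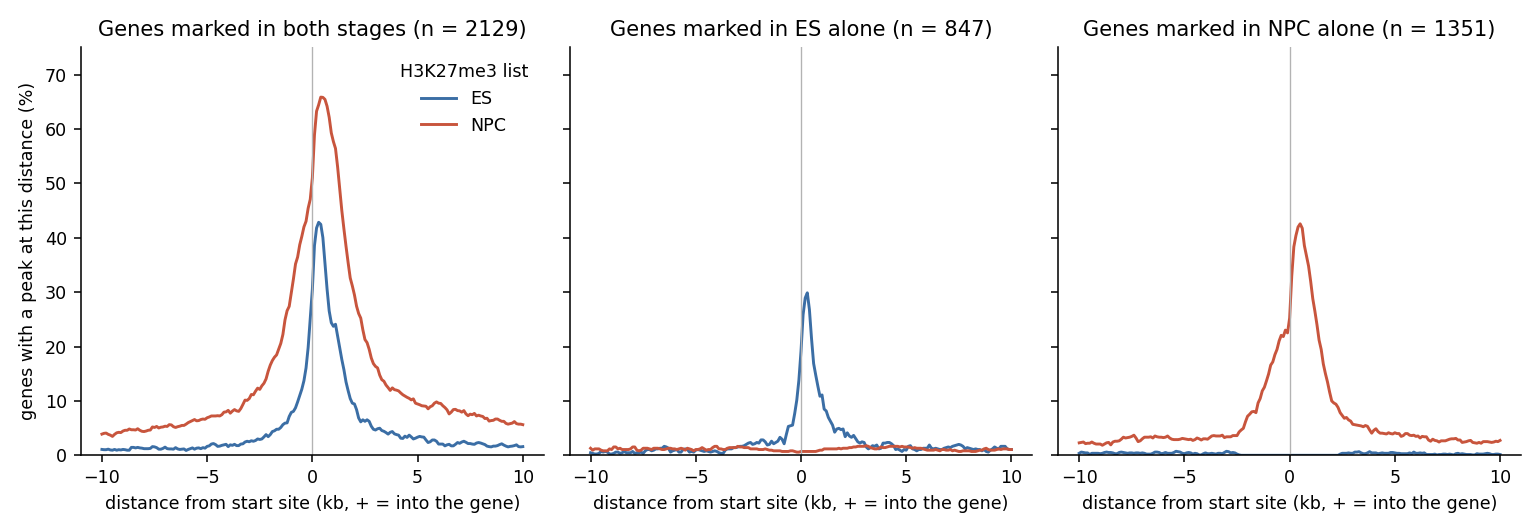
Share of genes with a peak at each distance from their start site, in percent, in 100 bp steps, for the ES list (blue) and the NPC list (red) and with 1 panel for each gene class. In genes marked in both, the NPC curve lies above the ES curve at every distance shown in the text, 51.0% against 30.5% at the start site. The near-zero curves of the other 2 panels follow from how those classes were defined.

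Measured in base pairs of promoter peaks, genes marked in both stages had a median of 710 bp in ES and 1754 bp in NPC, with a median ratio of 2.37. NPC had at least 2 times the ES base pairs at 1259 genes, 5.66% of all genes and 59.1% of those marked in both, and at most 1/2 at 84, 0.378% of all genes. Genes marked in a single stage had shorter peaks, a median of 329 bp in ES alone and 720 bp in NPC alone.

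Transcription factors of the body axis and the brain led the widened genes. Hoxd3 had the most NPC base pairs, with 3811 bp in ES and 23125 bp in NPC. It was followed by Pax6, a regulator of eye, forebrain and neural tube identity, with 4348 and 18187 bp. Zic4, a zinc finger factor of the dorsal neural tube, had 1920 and 15941 bp. Several of these are themselves neural genes, so the widened set was not confined to other lineages.

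Six3, a forebrain and eye factor, had 3110 bp in ES and 12792 bp in NPC, and Barhl1, a factor of hindbrain and inner ear neurons, had 2008 and 12016 bp. Lmx1b, which patterns the midbrain and limb, had 4755 and 11345 bp. The same ranking held genes outside patterning. The imprinted growth regulators Grb10 and Igf2 had 4980 and 11587 bp and 4119 and 11209 bp. The largest differences further included Nfix (1247 and 10418 bp), Nkx2-3 (831 and 10017 bp) and Hoxa3 (890 and 9955 bp).

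**Figure D3:**
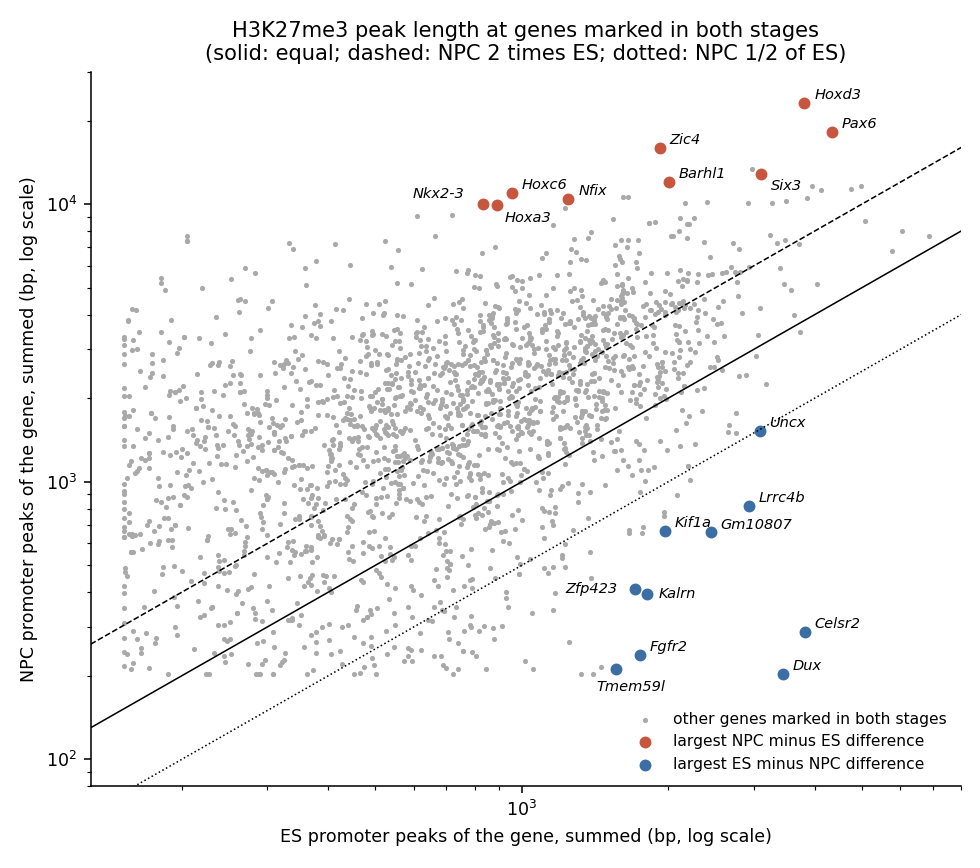
Summed length of the ES promoter peaks (x axis, bp, log scale) and of the NPC promoter peaks (y axis, bp, log scale) of each of the 2129 genes marked in both stages, with genes of the largest differences in each direction named. Most points lie above the solid line of equal length, and 1259 lie on or above the dashed line of 2 times the ES length, while Celsr2 and Dux lie far below the dotted line.

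The genes with the largest difference the other way had at most 1/2 of the ES length in NPC. Celsr2, an atypical cadherin of planar cell polarity, had 3820 bp in ES and 288 bp in NPC. Fgfr2, an FGF receptor, had 1749 and 237 bp. Kalrn, a guanine nucleotide exchange factor of dendritic spines, had 1806 and 395 bp, Kif1a, an axonal kinesin, 1970 and 664 bp, and Zfp423, a zinc finger partner of SMADs, 1708 and 411 bp. Lrrc4b, a synaptic adhesion protein, had 2930 and 819 bp.

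Some of these genes gave different values in other readings. Cells labelled shPCGF5 are of another genotype and not a replicate of wild type, and the cause of a difference there was not tested. In cells labelled shPCGF5, NPC had 5452 bp at Celsr2 against 572 bp in ES, 6485 against 2473 bp at Lrrc4b, 1755 against 632 bp at Kalrn, and 1738 against 1035 bp at Kif1a, so the order of the stages was turned there, while Fgfr2 kept it with 2112 bp in ES and 266 bp in NPC, and Zfp423 had 1202 and 1150 bp. Uncx (3081 and 1524 bp) and Tmem59l (1560 and 211 bp) entered the ranking only because the centre of a wide NPC peak lay outside the window. All bases of peaks within 2500 bp of their start sites came to 2808 bp in ES and 5275 bp in NPC at Uncx, and to 1350 and 3503 bp at Tmem59l. Dux (3446 and 203 bp), an activator of early embryonic genes, and its neighbour Gm10807 (2444 and 657 bp) lie in a tandem repeat, where near-identical copies share reads, so their values are uncertain.

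The 4 Hox clusters, whose genes give each body segment its identity along the axis, had scattered short peaks in ES and were covered by 60.7% to 85.0% in NPC. In HoxA, ES peaks covered 10.5% of the cluster and its 5 kb flanks and NPC peaks 70.4%. In HoxB the shares were 9.43% and 60.7%, and in HoxD 12.6% and 68.7%. The HoxC cluster had the lowest coverage in ES and the highest in NPC, 3.33% in 15 peaks and 85.0% in 62 peaks. The widest peak of the cluster had 669 bp in ES and 9068 bp in NPC.

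Of the 41 genes of these clusters, which include Evx1 and Evx2, 35 were marked in both stages, against 9.58% of all genes. Of these, 33 were at least 2 times as long in NPC, against 59.1% of all genes marked in both. A further 5 were marked in NPC alone, against 6.08% of all genes, and 1 in ES alone, against 3.81%. The genes marked in both had a median of 1049 bp in ES and 5433 bp in NPC. In HoxC, Hoxc4, Hoxc12 and Hoxc13 were marked in NPC alone with 7394, 5173 and 3973 bp, and Hoxc8 had 181 bp in ES and 5433 bp in NPC. Hoxb13 was also marked in NPC alone, with 4708 bp. These lie at the ends of their clusters, and in HoxC the end with Hoxc12 and Hoxc13 had no ES peak at all. Hoxb4 counted as ES alone (958 bp), although NPC peaks covered 4587 bp of its window, and Hoxa6 had 1049 and 338 bp beside a wide NPC peak of its neighbour Hoxa5 (1613 and 10607 bp).

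**Figure D4:**
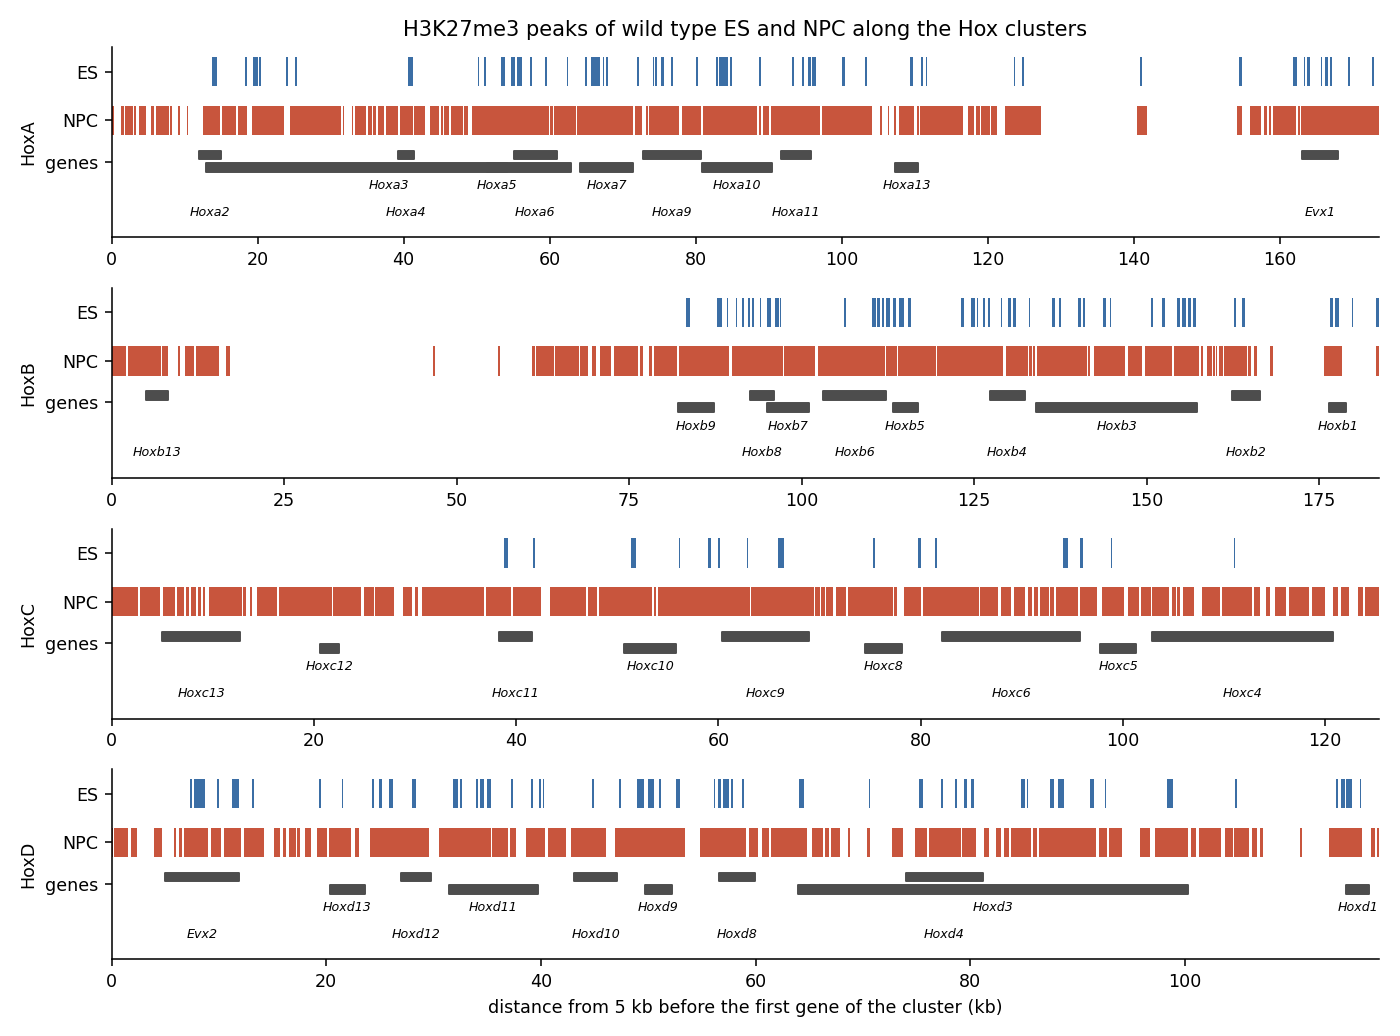
ES peaks (blue) and NPC peaks (red) along the 4 Hox clusters, in kb from 5 kb before the lowest-coordinate gene of each cluster, with named genes in grey. Each bar is drawn at its full width. ES peaks are short and spaced, and NPC peaks cover 60.7% to 85.0% of the clusters, with a gap between Hoxb13 and Hoxb9.

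Other homeobox families were marked in both stages with few exceptions. Of 53 genes of the Pax, LIM, Dlx, Irx, Nkx and sine oculis-related families, 46 were marked in both, against 9.58% of all genes, with a median of 1168 bp in ES and 3902 bp in NPC. All 6 Dlx genes, which act in forebrain interneurons and in limb and jaw, were among the widened genes, for example Dlx1 with 1281 and 7467 bp and Dlx5 with 252 and 5366 bp. Of 12 LIM homeobox genes 11 were marked in both, such as Lhx1 (2168 and 10126 bp) and Lhx9 (829 and 6658 bp). Lhx4 was the exception, with 734 bp in ES alone, but NPC bases covered 4222 bp of its window.

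Some members had less in NPC. Irx3, an Iroquois factor of the neural tube, had 2653 bp in ES and 1509 bp in NPC, and its neighbour Irx5 had 1762 and 1107 bp, whereas Irx4 had 1557 and 6049 bp. Pax7 (1910 and 2328 bp) and Isl2 (1721 and 1986 bp) were close in both stages. The family members therefore differed, from Isl2 to Pax8, a thyroid and kidney factor, with 254 and 2732 bp.

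Regulators of other germ layers stayed marked and were mostly widened. Of 22 annotated regulators of mesoderm and the primitive streak, 17 (77.3%) were marked in both, against 9.58% of all genes, and 14 of them were widened, against 59.1% of all genes marked in both. T (Brachyury), the primitive streak factor, had 855 bp in ES and 3819 bp in NPC, and Eomes had 524 and 4462 bp. Hand1, of heart and trophoblast, had 1389 and 7916 bp. Snai1, which drives epithelial to mesenchymal transition, was marked in NPC alone with 681 bp.

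Of 14 endoderm regulators 11 (78.6%) were marked in both, and all 11 were widened, beside the same shares of all genes, with a median of 819 bp in ES and 4539 bp in NPC. Gata4 had 1366 and 7538 bp, Gata6 1254 and 6206 bp, and Sox17, in the list of Sox factors, 152 and 3323 bp. Foxa3 was marked in NPC alone (1169 bp), and Hnf4a (468 bp) and Cxcr4 (175 bp) in ES alone. Of the 6 GATA factors, 5 were marked in both and Gata1, the erythroid factor on the X chromosome, in neither. No member of the mesoderm list was marked in ES alone.

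Neural genes did not lose the mark as a group. Of 23 annotated genes of neural precursors, 11 (47.8%) were marked in both, against 9.58% of all genes, and 4 (17.4%) in NPC alone, against 6.08%. A further 1 (4.35%) was marked in ES alone, against 3.81%, and 7 (30.4%) in neither, against 80.5%. The NPC-alone genes were Otx2, of forebrain and midbrain (6013 bp), Tubb3, the neuronal tubulin (1922 bp), Nes, the intermediate filament nestin (1252 bp), and Pou3f4 (268 bp). Pou3f2, a POU factor of neural progenitors, had 901 and 1953 bp, and Cdh2 (N-cadherin) was marked in ES alone with 330 bp. By ChIP-qPCR the paper reports a strong reduction of H3K27me3 at the Nestin, Cdh2 and Pou3f2 promoters during differentiation. In these peak lengths, which do not measure the amount of mark, only Cdh2 went that way. In cells labelled shPCGF5, Cdh2 had no H3K27me3 promoter peak in ES but had one in NPC. By these lists the NPC library had peaks at more neural precursor genes than the ES library. The same direction held over all genes, of which 13.4% were marked in ES and 15.7% in NPC.

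The proneural bHLH factors, which start neuronal differentiation, followed the same course. Of 17, 13 (76.5%) were marked in both, against 9.58% of all genes, and all 13 were widened, against 59.1%, with medians of 1139 and 3749 bp. Olig2 had 1467 bp in ES and 5329 bp in NPC, and Neurog1 had 1559 and 4228 bp. Of 24 homeobox genes of brain regions, 23 were marked in both and 22 widened, among them Vax2 (1822 and 8535 bp) and Dmbx1 (413 and 7208 bp). Sox11, a SoxC factor of young neurons, was marked in ES alone with 1088 bp, and Sox3 in neither. Peak lists cannot tell marked cells from unmarked ones within a mixed culture.

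Pluripotency factors divided into genes that gained a peak and genes that had none. Of 21 annotated, 9 (42.9%) were marked in NPC alone, against 6.08% of all genes, 1 in both, 0 in ES alone and 11 in neither. The core factors Pou5f1 (Oct4), Nanog and Sox2 had no promoter peak in either stage. Tbx3 had the longest coverage, 7182 bp in NPC and 0 in ES, and the widest of all gained peaks, 8299 bp at chr5:120112204-120120502, lay upstream of it.

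Fgf4, a growth factor of ES that drives their exit from the naive state, had 3248 bp in NPC and none in ES, and Prdm14, a repressor of FGF signalling and of lineage genes, had 2515 bp. The Kruppel-like factors Klf4, Klf2 and Klf5 had 2156, 1899 and 990 bp. Utf1, a chromatin protein of ES, had 1822 bp, Tdgf1, the Nodal coreceptor Cripto, 1049 bp, and Zfp42 (Rex1) 253 bp. Esrrb, a nuclear receptor of the naive network, was marked in both with 1340 and 2686 bp. The highest fold enrichment over background among the promoter peaks of each of these 9 genes, as the peak caller gave it, was between 5.24 at Tdgf1 and 12.04 at Klf2.

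The other lists split the 9 genes. NPC peaks of H2AK119ub1 lay at 5 of them, namely Klf2, Klf4, Tbx3, Fgf4 and Prdm14, and ES peaks of H2AK119ub1 at 1, Fgf4. In NPC labelled shPCGF5, H3K27me3 peaks lay at 4, with 6136 bp at Tbx3, 925 bp at Klf4, 768 bp at Prdm14 and 181 bp at Klf2. The other 5, Zfp42, Klf5, Tdgf1, Fgf4 and Utf1, had 0 bp there, so the NPC peaks at these genes were seen in the wild type library only.

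**Figure D5:**
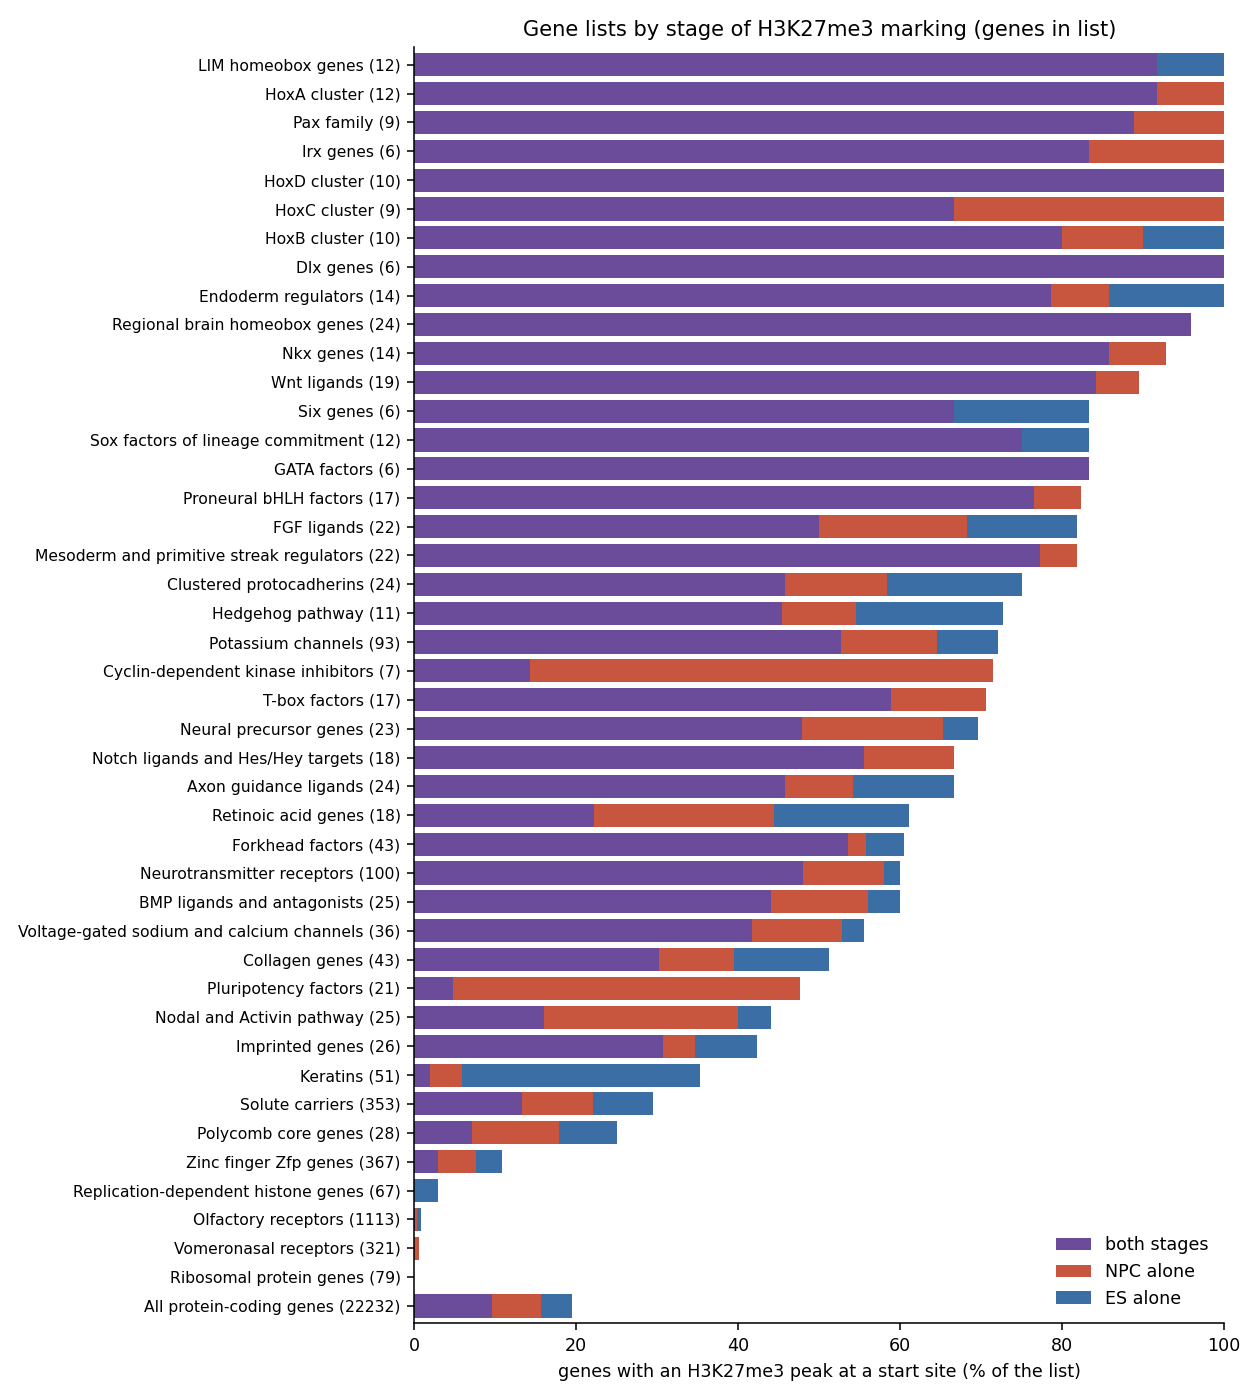
Share of each gene list (in percent of its annotated genes, number in brackets) marked in both stages (purple), in NPC alone (red) and in ES alone (blue), with all 22232 protein-coding genes at the bottom. Hox clusters and homeobox families have 66.7% to 100% of their genes marked in both, the cyclin-dependent kinase inhibitors and pluripotency factors have the largest NPC-alone shares, 57.1% and 42.9%, and the keratins the largest ES-alone share, 29.4%.

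Nodal signalling holds early cells back from a neural fate. Of 25 genes of the Nodal and Activin pathway, 6 (24.0%) were marked in NPC alone, against 6.08% of all genes, 4 in both, 1 in ES alone and 14 (56.0%) in neither, against 80.5% of all genes. The ligand Nodal had 1379 bp in NPC, its secreted inhibitors Lefty1 and Lefty2 had 1638 and 698 bp, and the coreceptor Tdgf1 had 1049 bp. The ligand Tgfb2 had 1470 bp and the receptor Tgfbr1 225 bp. The class thus held ligands, inhibitors, a receptor and a coreceptor. The inhibitor Fst (follistatin) was the ES-alone gene, with 739 bp in ES and, in NPC labelled shPCGF5, 1368 bp. Nodal, Lefty1, Lefty2 and Tdgf1 had no promoter peak in NPC labelled shPCGF5. In ES labelled shPCGF5, 3 of the 6 NPC-alone genes had an H3K27me3 promoter peak.

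In the other signalling lists the share marked in both was 84.2% for Wnt, 50% for FGF and 44% for BMP genes, against 9.58% of all genes. Of 19 Wnt ligands 16 were marked in both, for example Wnt7b (3344 and 7272 bp) and Wnt10b (523 and 7367 bp), and Wnt16 in NPC alone (1629 bp). Of 25 BMP ligands, antagonists and targets 11 were marked in both, and Bmp4 (2202 bp), Bmp8a (2355 bp) and Id4 (2097 bp) in NPC alone. Bmp1, a procollagen protease, was marked in ES alone with 1846 bp. Of 22 FGF ligands 11 were marked in both, 4 in NPC alone (Fgf4, Fgf13, Fgf16 and Fgf20) and 3 in ES alone (Fgf6, Fgf10 and Fgf15).

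Of 11 Hedgehog pathway genes 5 (45.5%) were marked in both, against 9.58% of all genes, 2 of them widened and 1 narrowed. The ligands Shh (1438 and 2370 bp), Ihh (2145 and 4481 bp) and Dhh (359 and 5902 bp) had more in NPC. The receptor Ptch1 (1207 and 532 bp) and the effector Gli3 (362 and 203 bp) had less, and the transducer Smo (556 bp) and the effector Gli1 (347 bp) were marked in ES alone. The inhibitor Hhip was marked in NPC alone with 489 bp. With short peaks, this is a description of 2 libraries.

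Notch genes had a lower median ratio, 2.11 over 10 genes marked in both. The ligand Dll1 had 2130 bp in ES and 1810 bp in NPC, and the target Hes5 1899 and 2389 bp, while the ligand Dll4 of blood vessels had 2188 and 5307 bp. Hey2 had 807 and 236 bp, and Hey1 (861 bp) and the ligand Dll3 (426 bp) were marked in NPC alone. Among genes of retinoic acid, the receptors Rara (358 bp) and Rarg (989 bp) were marked in NPC alone and Rxra (152 bp) and Rxrg (649 bp) in ES alone. The degrading enzyme Cyp26a1 had 1366 and 3666 bp.

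Among 7 cyclin-dependent kinase inhibitors, which stop the cell cycle, 4 (57.1%) were marked in NPC alone, against 6.08% of all genes, 1 in both, against 9.58%, and 2 in neither. Cdkn2a, which encodes p16 and p19ARF and is a known Polycomb target in dividing cells, had 5188 bp in NPC and 0 in ES, Cdkn2c 2049 bp, Cdkn1a (p21) 1700 bp and Cdkn2b 1260 bp. Cdkn1c, which is imprinted, had 2189 and 2643 bp. H2AK119ub1 peaks in NPC lay at 3 of the 4, Cdkn2a, Cdkn2b and Cdkn2c, and none in ES. H3K27me3 in NPC labelled shPCGF5 covered 1086 bp at Cdkn2a and 549 bp at Cdkn2c, and was absent from the lists at Cdkn1a and Cdkn2b.

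Of 28 Polycomb genes 21 (75%) were marked in neither stage, against 80.5% of all genes. Bmi1, a PRC1 subunit, was marked in NPC alone with 2730 bp, as were the PRC2 partner Phf19 (1926 bp) and Phc2 (573 bp). Cbx8 was marked in both (972 and 4062 bp). Pcgf5 had 382 bp in ES and 720 bp in NPC.

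Genes of mature neurons were marked in both stages more often than in a single stage. Of 229 genes of potassium, sodium and calcium channels and of neurotransmitter receptors, 112 were marked in both, against 9.58% of all genes, 25 in NPC alone, against 6.08%, 10 in ES alone, against 3.81%, and 82 in neither, against 80.5%. Their median was 695 bp in ES and 1769 bp in NPC, a median ratio of 2.44 against 2.37 over all genes marked in both. Kcnk9 had 2594 and 4490 bp and the adrenergic receptor Adrb1 2288 and 3937 bp. Receptors marked in NPC alone included Grm7 (3122 bp), Grik3 (2909 bp) and Grin1 (1982 bp), subunits of glutamate receptors.

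Axon guidance ligands, clustered protocadherins and collagens had lower ratios than the median of 2.37. The axon guidance ligands had a median ratio of 1.09 over 11 genes marked in both, with Sema5b at 3725 and 3477 bp, and Efnb2 (978 bp) and Efna5 (905 bp) marked in ES alone. The clustered protocadherins had 1.13 over 11 genes and short peaks, with medians of 289 and 336 bp. Near-identical stretches of these genes can share reads, so their values are uncertain. Collagen genes had 1.29 over 13.

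Keratins were the list with the largest share marked in ES alone. Of 51, 15 (29.4%) were marked in ES alone, against 3.81% of all genes, 2 in NPC alone and 1 in both. The 15 had between 152 and 824 bp, with a median of 264 bp and folds between 2.85 and 5.89, and included Krt1, Krt14 and Krt82 (566, 289 and 824 bp). Only Krt2 and Krt4 had a peak in ES labelled shPCGF5. When only the higher-scoring 50% of each list was used, 5 keratins were marked in ES alone, and with only peaks found again in the shPCGF5 list of the stage, 1. The 2 keratins marked in NPC alone, Krt8 and Krt18, with 319 and 245 bp, form the filament pair of simple epithelia.

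The ES-alone gene with the longest coverage was Flg, the skin barrier protein filaggrin, with 5991 bp and a fold of up to 9.34, and 5629 bp in ES labelled shPCGF5. Its coding exon is built of near-identical repeats, so this value is uncertain. Sp140 (4072 bp), Sp110 (3146 bp) and C130026I21Rik (2895 bp) followed, which lie in a stretch of chromosome 1 with near-identical gene copies and are uncertain for the same reason. Genes in single-copy sequence were Mn1, a transcriptional coregulator (2606 bp), Plxnc1, a semaphorin receptor (2315 bp), Pkdcc, a secreted kinase (1927 bp), and Zmiz1 (1889 bp). All 4 had peaks in NPC labelled shPCGF5, with 3905 bp at Mn1, 2008 bp at Plxnc1, 180 bp at Pkdcc and 1196 bp at Zmiz1. Foxf1a (2760 bp) was in the class only by peak centre, as 5089 bp of its window were covered in NPC. Over all 847 ES-alone genes, 824 (97.3%) had no NPC base in the window.

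Among the NPC-alone genes, Hoxc4 and Tbx3 were followed by Ltbp4 (6136 bp), which binds latent TGF-beta, Otx2 (6013 bp), Rnf213 (5912 bp), a ubiquitin ligase, and Pdgfa (5559 bp), a growth factor of mesenchyme and glia. Otx2 and Ltbp4 had 0 bp in NPC labelled shPCGF5, Rnf213 2670 bp and Pdgfa 3280 bp. Gm10716 and Gm17535 (5791 and 5615 bp) are predicted genes beside the centromeric end of chromosome 9, with folds of 2.51 and 2.63, below the median of 4.69 of the list. The widest gained peaks outside Tbx3 lay near Tlx1 (6748 bp) and Hoxc11 (6124 bp), both homeobox genes. The widest lost peaks lay near Nrbp2 (2471 bp) and Srd5a2 (2003 bp) and at Dux (1979 bp).

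Large families with few marked members set the lower end, beside 80.5% of all genes marked in neither stage. None of 79 ribosomal protein genes was marked in either stage, and of 67 replication-dependent histone genes 2 were, in ES alone. Of 1113 olfactory receptors 1103 (99.1%) were marked in neither and of 321 vomeronasal receptors 319 (99.4%). Of 367 zinc finger genes named Zfp, 327 (89.1%) were marked in neither, nearer to the share of all genes. Solute carriers, with 47 of 353 in both, 26 in ES alone and 31 in NPC alone, also lay nearer to all genes. The shares were 13.3% in both against 9.58%, 7.37% in ES alone against 3.81%, and 8.78% in NPC alone against 6.08%.

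In wild type cells H2AK119ub1, the PRC1 mark, overlapped lost peaks more often in ES and gained peaks more often in NPC. Most peaks of both classes had no H2AK119ub1 peak even in the stage with H3K27me3. Lost ES peaks were overlapped by H2AK119ub1 in ES in 22.0% (21.0 to 23.0) and in NPC in 0.595% (0.437 to 0.809). Gained NPC peaks were overlapped in ES in 4.01% (3.59 to 4.47) and in NPC in 21.2% (20.3 to 22.2). Kept ES peaks were overlapped in 34.7% in ES and 30.0% in NPC. The wild type H2AK119ub1 lists had 8672 peaks in ES and 5754 in NPC, so the share at gained peaks went against the lengths of the lists. In cells labelled shPCGF5, with H2AK119ub1 lists of 7170 and 3845 peaks, gained peaks were overlapped in 8.30% in ES and 7.71% in NPC. Lost peaks were overlapped there in 11.1% and 2.94%. The stage order at gained peaks was thus not seen in those lists.

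The same held at genes in wild type cells. Of genes marked in ES alone, 27.9% (24.9 to 31.0) had an H2AK119ub1 promoter peak in ES and 2.60% (1.72 to 3.90) in NPC. Of those marked in NPC alone, 6.07% (4.92 to 7.47) had one in ES and 16.0% (14.1 to 18.04) in NPC. Genes marked in both had 44.7% and 39.2%, and genes marked in neither 1.22% and 0.195%. Both marks were read in cells of the same stage and genotype, with 1 library each. The labels name no separate input for each of these marks, so the lists of a stage may not be independent. In cells labelled shPCGF5, H2AK119ub1 promoter peaks lay at 9.55% of NPC-alone genes in ES and 8.66% in NPC. At ES-alone genes the shares there were 14.8% and 6.02%.

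Flag-PCGF5 in NPC overlapped 11.6% of kept NPC peaks (10.6 to 12.6) and 5.17% of gained ones (4.69 to 5.69). Kept NPC peaks were wider, with medians of 1058 and 355 bp, and a wider peak is met more easily. The overlapped peaks were 426 in a kept class covering 5.51 Mb and 397 in a gained class covering 4.16 Mb. The shares therefore do not show a preference for kept peaks. At genes it lay at 22.9% of those marked in both, 21.2% of those marked in NPC alone and 14.4% of those marked in ES alone, against 12.1% of genes marked in neither. In ES, with 653 Flag-PCGF5 peaks in all, the share was 1.17% of genes marked in both and 1.70% of those marked in NPC alone. The intervals of the NPC shares were 19.1 to 23.4 for NPC-alone and 12.2 to 16.9 for ES-alone genes. They cover counting error in 1 Flag library, and the difference was not tested. The 2 classes also differed in their share of CpG-rich start sites, 62.1% and 46.8%.

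The shPCGF5 lists give another, genetically different library of each stage. They overlapped 53.2% of kept ES peaks, 21.5% of lost ES peaks, 84.6% of kept NPC peaks and 45.9% of gained NPC peaks in the same stage. In the opposite stage, ES labelled shPCGF5 overlapped 14.1% of gained peaks. Lost peaks were thus found again in the other ES library, with 10234 peaks, in 21.5% (20.5 to 22.5), and in the other NPC library, with 14759 peaks, in 16.3% (15.4 to 17.2). Among peaks of 1000 bp or more, 45 of 55 lost ES peaks (81.8%) and 717 of 888 gained NPC peaks (80.7%) were found again in the same stage, but of the 4861 lost and 2818 gained peaks under 300 bp only 14.9% and 27.8% were. At genes, 46.3% of the ES-alone class had a promoter peak in ES labelled shPCGF5 and 35.7% in NPC labelled shPCGF5, and 53.1% of the NPC-alone class had one in NPC labelled shPCGF5 and 23.8% in ES labelled shPCGF5.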

How the data were processed

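H3K27me3 ChIP-seq peak lists of wild type ES and NPC, with 8 further lists as readouts, were analysed, and 6 input libraries were not used here. Groups were taken from the labels, with 1 library each. As the methods of the study state, chromatin for histone marks was digested with MNase and lightly fixed, reads were trimmed with Trimmomatic, those under 36 bp were dropped, the rest were aligned to mm9 with Bowtie2, duplicates were removed with Picard and peaks were called for each library with MACS2 (2.1.0 in the submitters' processing notes). Narrow-peak calls were used for a mark that forms broad domains. The deposited lists hold for every peak the values of the authors' peak caller, namely its score, its ratio to background (fold enrichment), and its p-value and q-value as −log10. These were used only to rank, filter or describe peaks within a list. Depth is unknown, as the lists hold no read totals.

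All peaks lay within the chromosomes of NCBIM37, the assembly of mm9. Overlaps, start sites and sequence windows were computed in Python 3.11.15 with numpy 2.4.6. The overlap code recovered all 4 planted quantities in simulated lists, and 18 overlap counts equalled those of bedtools 2.31.1. Gene lengths are the summed widths of promoter peaks, so a wide peak can count for several genes, and a wide peak centred outside the window for none. Sequences came from the NCBIM37 genome, none of them overlapping an annotated UTR. The members, gene lists and comparisons were chosen with earlier results of these data known. Genes were named by rank of promoter peak length within each class (10 each), by the 4 longest of each gene list or all of lists of up to 12 genes, and by a few neural and Nodal genes. Others, mainly those marked in a single stage within longer lists, were chosen after their values were seen. Alternatives changed the overlap, score, q-value, merging, chromosomes, width ratio and window, and 1 was added after seeing the data. No test was run, since no group had a replicate. A few genes that the naming rule would include are not reported here.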

Additional observations from a re-analysis of the deposited data

Results flagged for a closer look

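The number of H3K27me3 peaks went opposite ways between the genotypes. From ES to NPC it changed by -437 in wild type and by 4525 in cells labelled shPCGF5. With 1 library in each group and lists whose length depends on depth, the difference was not tested.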

How the results depend on the processing

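The share of ES peaks kept, 43.0%, was 39.1% when 50% of the peak had to be overlapped, 41.8% in the higher-scoring 50% of each list, 37.4% with peaks within 1000 bp merged, 44.6% with a q-value of 0.05 or less and 60.4% with only peaks overlapped in the shPCGF5 list of the stage, an alternative added after seeing the data. Under the same settings in the same order, the share of NPC peaks gained, 67.6%, was 86.7%, 66.0%, 57.5%, 68.8% and 70.0%. The share of kept regions widened, 50.3%, was 58.9% in the higher-scoring 50%, 52.5% with merging, 54.1% with shPCGF5 agreement, 66.0% when NPC had at least 1.5 times the ES length and 31.0% at 3 times. Genes marked in both stages, 2129, were 1337 in the higher-scoring 50% and 1275 with shPCGF5 agreement, and genes marked in ES alone, 847, were 387 with that agreement, against 1168 in NPC alone. Pluripotency factors marked in NPC alone were 8 or 9 of 21 under the planned settings and 4 with shPCGF5 agreement, and keratins marked in ES alone between 5 and 15, and 1. The cause of these changes was not tested. Equal list sizes, chromosomes 1 to 19 and both other windows moved no gene count by over 1.5 times. No paired analysis was possible because each group had 1 library. Depth, the mixture of cells and the feeder layer limit every comparison, and a peak under the caller's threshold is listed as absent.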
